A study of Mus musculus with 8 samples.

Results

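The genes described here are 9 receptors and surface markers by which early B cells are recognized and staged: Il7r, Crlf2, Kit, Flt3, Il2ra, Cd93, Cd24a, Spn and Bst1. They were taken by name from a table of read counts over 54532 genes, and each was matched to 1 Ensembl identifier. All 9 were among the 15305 genes that passed the filter on low counts. The counts came from RNA-seq of B cells sorted with magnetic beads from the bone marrow of mice after a sham operation (Sham, 3 libraries) or removal of both ovaries (OVX, 3 libraries), a surgical model of menopause. The labels name no culture step and no agent for these libraries. The study describes the surgery in young adult female mice and names wild-type mice for its first comparisons, but ties no genotype, strain or age to these libraries. Its captions count as many mice per group as there are libraries, and the labels do not say whether each library came from 1 animal, so p-values measure only the spread between these libraries. The comparison of OVX with Sham asks whether removal of the ovaries changed the receptors and stage markers of the total B cell fraction, in which the study stained pro-B cells by c-kit and CD43 (the products of Kit and Spn) and pre-B cells by CD25 (the product of Il2ra).

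B cells arise in the marrow from lymphoid progenitors that carry the receptor tyrosine kinases FLT3 and KIT, and from the pro-B stage on they depend in the mouse on interleukin 7 from stromal cells. The receptor for interleukin 7 pairs the chain encoded by Il7r with the common gamma chain, and the same Il7r chain pairs with the product of Crlf2 to bind TSLP. Surface proteins then mark the stages: CD43 and c-kit fall as pro-B cells become pre-B cells, CD25 appears on pre-B cells, and CD93 and CD24 decline as immature B cells mature.

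No member was called higher or lower in OVX. Bst1, Il7r, Il2ra, Cd93, Cd24a and Crlf2 had a higher mean in OVX, with log2 fold changes from 0.06 to 0.38, and Flt3, Kit and Spn a lower one, from -0.64 to -0.06. Levels spread more between the Sham libraries than between the OVX libraries for every member but Bst1 (SD of 7.18 CPM in Sham and 9.79 in OVX). Il7r, Il2ra, Cd93, Cd24a, Bst1, Kit and Spn were lowest in Sham replicate 2, and Kit, Flt3 and Spn were highest in Sham replicate 3.

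Those 2 libraries stood apart in other transcripts too. The 14 mature B genes, among them Ighd and Fcer2a, took up 0.659% of Sham replicate 2 against 0.296% to 0.372% of the other 5 libraries. The 18 neutrophil genes took up 1.08% of Sham replicate 3 and 0.132% to 0.477% elsewhere. Among the general B cell genes, Cd79a, a signal chain of the B cell receptor, lay between 1548 and 1883 CPM. Reads of genes listed for other cell types were present as well. Of the T, NK and innate lymphoid genes, Cd3e had at most 33 reads in a library, Lck 947 and Cd4 1081. S100a9 of neutrophils reached 2488 CPM in Sham replicate 3. These values do not measure the purity of the fraction. CPM are the usual library-normalized counts, with edgeR's TMM scaling factors applied to the library totals. They are not divided by transcript length, so levels are compared between libraries and not between genes. In such bulk samples a smaller number of cells of a stage and less RNA per cell cannot be told apart. The totals ran from 23838775 to 33136701 counts per library.

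Promoter sequence is shown for 2 pairs of receptors whose levels varied together over the libraries, Il7r with Il2ra (r = 0.845) and Kit with Flt3 (r = 0.812). They were not the closest pairs, as Kit had r of 0.928 with Spn. Il7r and Il2ra were both lowest in Sham replicate 2, and Kit and Flt3 were both highest in Sham replicate 3. Each likeness can therefore rest largely on a single library. The promoter set used held entries for 6 of the 9 members (build GRCm38.p6, the mm10 assembly named for these data). The bases printed lie before the start annotated in it and outside the gene's RefSeq span, on the gene's own strand. Capitals mark matches to 3 motifs searched on both strands: the core of a hypoxia response element (ACGTG or GCGTG), a STAT site (TTCNNNGAA) and an EBF1 palindrome (CCCNNGGG).
Il7r, chr15:9529942-9530126, strand -: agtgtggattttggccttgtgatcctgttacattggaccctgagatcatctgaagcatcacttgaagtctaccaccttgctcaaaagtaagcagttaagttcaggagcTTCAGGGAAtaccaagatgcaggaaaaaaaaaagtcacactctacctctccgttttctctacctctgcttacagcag
Il2ra, chr2:11642542-11642791, strand +: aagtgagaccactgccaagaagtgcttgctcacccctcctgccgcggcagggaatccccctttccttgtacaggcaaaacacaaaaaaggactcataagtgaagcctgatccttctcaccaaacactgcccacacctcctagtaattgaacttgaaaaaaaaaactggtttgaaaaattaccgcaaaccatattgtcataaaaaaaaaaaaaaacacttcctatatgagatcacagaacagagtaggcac
Kit, chr5:75574737-75574986, strand +: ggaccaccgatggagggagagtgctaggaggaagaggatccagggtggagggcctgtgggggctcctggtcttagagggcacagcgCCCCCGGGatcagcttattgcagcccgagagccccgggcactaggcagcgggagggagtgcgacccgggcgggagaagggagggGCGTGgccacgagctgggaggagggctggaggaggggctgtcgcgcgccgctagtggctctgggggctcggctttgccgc
Flt3, chr5:147400490-147400739, strand -: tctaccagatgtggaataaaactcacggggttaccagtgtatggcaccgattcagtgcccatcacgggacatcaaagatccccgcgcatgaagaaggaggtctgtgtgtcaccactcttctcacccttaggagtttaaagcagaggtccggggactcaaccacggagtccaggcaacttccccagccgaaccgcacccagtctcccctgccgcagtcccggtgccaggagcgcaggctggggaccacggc
In the 250 bases before the promoter set's start, Il7r held 1 STAT match, whose first base lies 142 bases before it. For Il7r this start lies inside the RefSeq span, so its printed stretch covers only bases 250 to 66 before the start. Kit held 1 hypoxia core at 80 bases and 1 EBF1 match at 164 bases. No motif matched in Il2ra or Flt3. Of the members not printed, Crlf2 held 3 hypoxia cores and Spn 3 EBF1 matches, 2 of which overlap. Of 32851 promoter windows of this length, 38.6% held a hypoxia core, 7.02% a STAT match and 11.8% an EBF1 match. These matches describe letters and not binding, and the HIF-1α ChIP-seq was not analysed here.

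Il7r (ENSMUSG00000003882, chr15:9506159-9529941) encodes the alpha chain of the interleukin 7 receptor. Its level, given here and below in the order of replicates 1, 2 and 3, was 332, 220 and 266 CPM in Sham and 328, 334 and 363 CPM in OVX. The OVX libraries lay close together and the Sham libraries did not, with Sham replicate 1 above OVX replicate 1. The mean was 273 ± 56.1 CPM in Sham and 342 ± 19.0 in OVX (SD of 3 libraries each), a log2 fold change of 0.33 (standard error 0.14, 95% interval -0.011 to 0.66, adjusted p = 0.811 by the quasi-likelihood test of edgeR). Leaving out Sham replicate 2 gave 0.19, and leaving out Sham replicate 1 gave 0.49.

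Crlf2 (ENSMUSG00000033467, chr5:109554709-109559128), which encodes the specific chain of the TSLP receptor, was at 44.4, 55.4 and 52.1 CPM in Sham and at 54.0, 49.6 and 55.0 CPM in OVX. Alone among the 9 genes it was highest in Sham replicate 2. The groups overlapped, and the log2 fold change was 0.06 (standard error 0.10, 95% interval -0.17 to 0.29, adjusted p = 0.878 from the same test). As folds, the interval ran from 0.888 to 1.23.

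Il2ra (ENSMUSG00000026770, chr2:11642792-11693194) encodes CD25, the alpha chain of the interleukin 2 receptor and the study's pre-B marker. It varied most over the libraries, 2.81-fold from the lowest to the highest. It was at 152, 65.5 and 125 CPM in Sham and at 126, 184 and 136 CPM in OVX. Sham replicate 2 lay far below the rest, and the other 5 libraries did not separate by group. The log2 fold change was 0.38 (standard error 0.30, 95% interval -0.31 to 1.08, adjusted p = 0.811 from the same test), and leaving out Sham replicate 2 gave 0.098. Leaving out OVX replicate 2, the highest library, gave 0.20. CD25 also marks regulatory T cells, whose defining gene Foxp3 had between 3 and 33 reads per library, with 19 in Sham replicate 2.

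Flt3 (ENSMUSG00000042817, chr5:147330741-147400489) encodes a receptor kinase of lymphoid progenitors that is lost as cells commit to the B lineage. It had 118, 131 and 186 reads in Sham and 87, 92 and 136 in OVX, fewer than any other member. Its level was 4.98, 4.61 and 7.48 CPM in Sham and 3.54, 3.25 and 4.12 CPM in OVX. The OVX libraries all lay below the Sham libraries, for which an exact two-sided permutation of the labels gives p = 0.1, the lowest value within reach of 6 libraries. The mean was 5.69 ± 1.56 CPM in Sham and 3.64 ± 0.442 in OVX (SD of 3 libraries each), a log2 fold change of -0.64 (standard error 0.24, 95% interval -1.22 to -0.074), with an unadjusted p of 0.0318 and an adjusted p of 0.811 in the quasi-likelihood test of edgeR. It was -0.41 without Sham replicate 3, which held the most reads, and -0.37 with the neutrophil share as a covariate.

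Kit (ENSMUSG00000005672, chr5:75574987-75656722) encodes the receptor of stem cell factor, carried by stem cells, mast cells and pro-B cells. Its level was 14.4, 10.9 and 18.7 CPM in Sham and 12.1, 11.96 and 13.9 CPM in OVX. All OVX libraries fell within the range of the Sham libraries. The log2 fold change was -0.21 (standard error 0.21, 95% interval -0.70 to 0.27, adjusted p = 0.816 from the same test). It was -0.0049 without Sham replicate 3, -0.39 without Sham replicate 2 and 0.00064 with the neutrophil share as a covariate.

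Cd93 (ENSMUSG00000027435, chr2:148436651-148443535) encodes the antigen AA4.1 of progenitor and immature B cells. It was at 536, 289 and 455 CPM in Sham and at 475, 549 and 512 CPM in OVX. Sham replicate 2 was again the low library, and the log2 fold change of 0.26 (standard error 0.21, 95% interval -0.22 to 0.75, adjusted p = 0.811 from the same test) was 0.045 without it. Cd24a (ENSMUSG00000047139, chr10:43579169-43584265) encodes heat stable antigen, a small lipid-anchored glycoprotein. Its level was 1967, 1230 and 1672 CPM in Sham and 1777, 2008 and 1542 CPM in OVX. The groups overlapped, with a log2 fold change of 0.13 (standard error 0.18, 95% interval -0.29 to 0.55, adjusted p = 0.860 from the same test). Leaving out Sham replicate 2 turned it to -0.039.

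Spn (ENSMUSG00000051457, chr7:127123637-127145552) encodes CD43, a heavily glycosylated surface protein. It varied least of the 9, by 1.18-fold over the libraries. Its level was 134, 119 and 141 CPM in Sham and 129, 122 and 128 CPM in OVX. Its log2 fold change was -0.06 (standard error 0.08, 95% interval -0.24 to 0.13, adjusted p = 0.859 from the same test). As folds, that interval ran from 0.847 to 1.09.

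Bst1 (ENSMUSG00000029082, chr5:43818880-43843468) encodes CD157, also called BP-3, a lipid-anchored enzyme of early B cells and stroma. It was at 67.5, 53.2 and 58.7 CPM in Sham and at 63.6, 82.3 and 78.0 CPM in OVX. OVX replicates 2 and 3 lay above all Sham libraries and OVX replicate 1 did not. The mean was 59.8 ± 7.18 CPM in Sham and 74.7 ± 9.79 in OVX (SD of 3 libraries each), a log2 fold change of 0.32 (standard error 0.12, 95% interval 0.028 to 0.61), with an unadjusted p of 0.0357 and an adjusted p of 0.811 in the quasi-likelihood test of edgeR. It was between 0.24 and 0.42 when any 1 library was left out. With the neutrophil share as a covariate it was 0.23, with an unadjusted p of 0.169 in the same test.

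**Figure D1:**
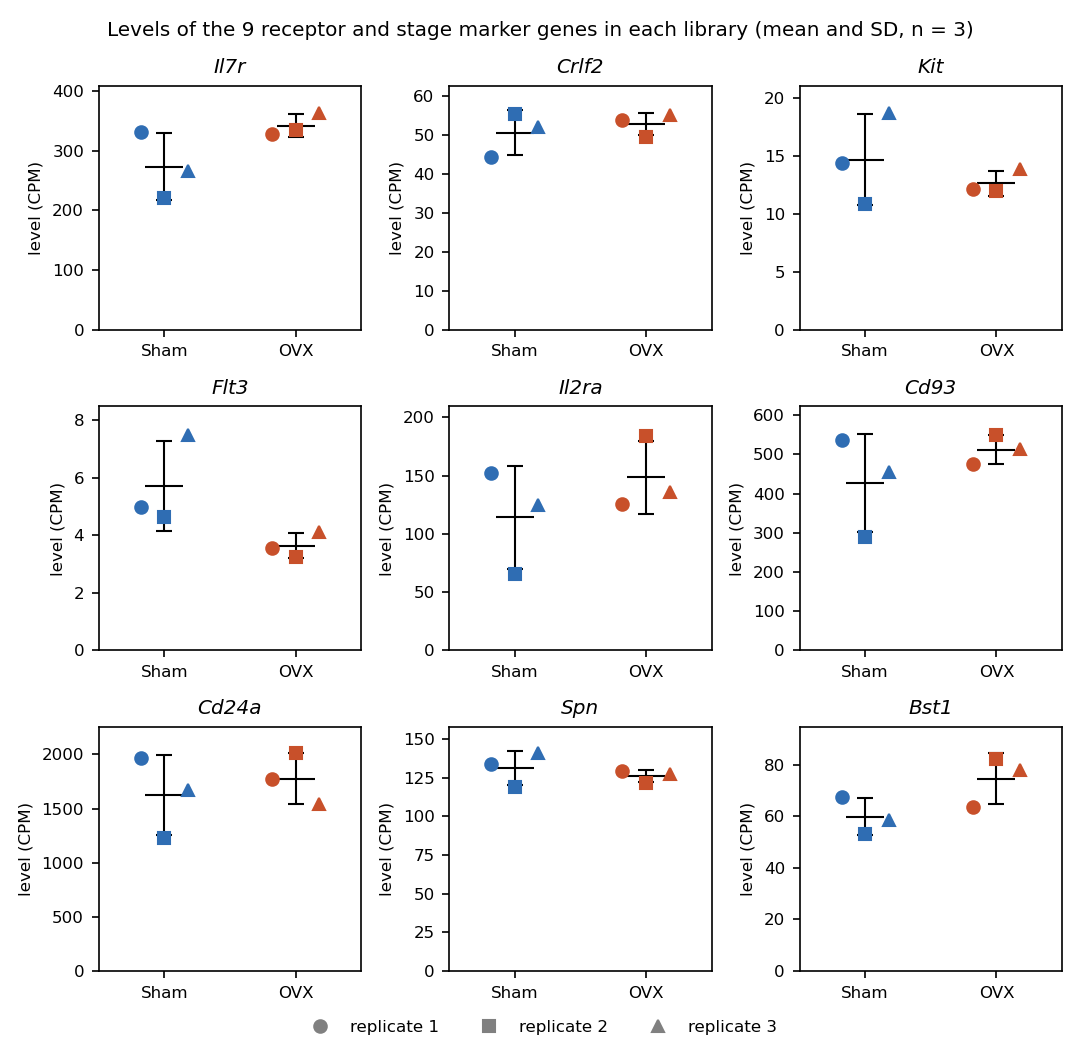
Levels of the 9 genes in CPM, each axis from 0, with 1 point per library (blue Sham, orange OVX, shape by replicate number) and the mean and SD of 3 libraries in black. Only for Flt3 do the groups not overlap, and Sham replicate 2 is the lowest point for Il7r, Kit, Il2ra, Cd93, Cd24a, Spn and Bst1.

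Of the 9 genes, 0 were called at an adjusted p under 0.05, as were 0% of the 15305 genes tested with the quasi-likelihood test of edgeR, and DESeq2 and limma-voom called 0 members as well. At an unadjusted p under 0.05 there were 2 members, Flt3 and Bst1, against a background of 3.75% of all genes (1.47% higher in OVX, as Bst1, and 2.28% lower, as Flt3), and 3 with DESeq2 or limma-voom, where Il7r was added. The groups did not overlap for 1 member, Flt3, and for 8.44% of all genes (4.33% with OVX above Sham and 4.12% with OVX below, as Flt3). A log2 fold change above 0 was found for 6 members and for 48.2% of all genes. The median log2 fold change of the members was 0.13, and that of all genes -0.0081. The 2 members at an unadjusted p under 0.05 differed with the libraries used: without Sham replicate 1 there were 4 (Il7r, Flt3, Cd93 and Bst1), without Sham replicate 2 only Flt3, without Sham replicate 3 or OVX replicate 2 none, without OVX replicate 1 only Bst1, and without OVX replicate 3 only Flt3.

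**Figure D2:**
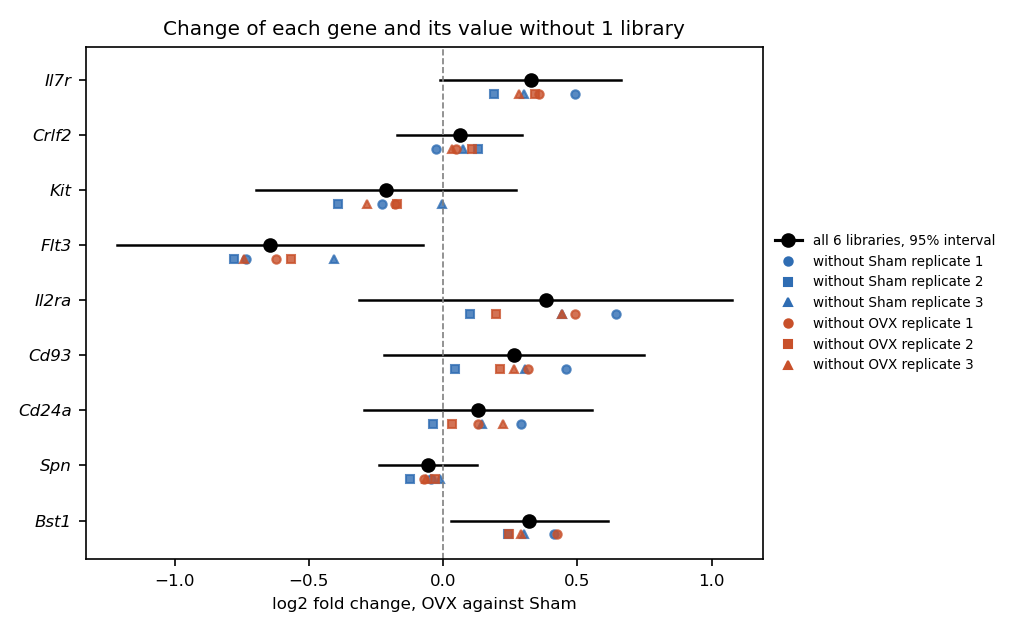
Log2 fold change of OVX against Sham for each gene (black point, line for the 95% interval of edgeR's quasi-likelihood fit), with the value after leaving out 1 library below it. The intervals of Flt3 and Bst1 do not reach 0, and the value without Sham replicate 2 (blue square) is the lowest of the 6 for every gene but Crlf2.

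Over the 6 libraries the members fell into 2 patterns, seen after the values were known. Il2ra and Cd93 were most alike, with Pearson's r of 0.979 between their log2 levels, and Il2ra had r of 0.929 with Cd24a, 0.845 with Il7r and 0.834 with Bst1. Kit had r of 0.928 with Spn and 0.812 with Flt3, but 0.312 with Il2ra and 0.0917 with Il7r. Crlf2 followed neither pattern, with r between -0.735 and -0.0971 to the other 8 genes. These are descriptions over 6 libraries that share their scaling, and a single library can carry much of such an r. The share of counts on the mature B genes ran opposite to 7 of the 9 genes, with r of -0.97 for Cd93, -0.944 for Il2ra, -0.897 for Cd24a, -0.802 for Il7r, -0.667 for Bst1, -0.612 for Spn and -0.557 for Kit, against -0.018 for Flt3 and 0.626 for Crlf2. That share was 0.659% in Sham replicate 2 and 0.296% to 0.372% elsewhere. These r can therefore rest largely on that library, and r without it was not computed. Other lists stood further from 0 for some members. Il7r and Bst1 had r of -0.954 and -0.906 with the plasma cell share and of -0.905 and -0.915 with the stem and early progenitor share. With the pro-B and small pre-B shares r was 0.935 and 0.915 for Il7r and 0.938 and 0.963 for Bst1. It was 0.87 and 0.9 for Il2ra, 0.89 and 0.888 for Cd93 and 0.72 and 0.773 for Cd24a. The other members had 0.0505 and -0.0452 (Kit), 0.0606 and -0.0316 (Spn), -0.459 and -0.567 (Flt3), and -0.502 and -0.471 (Crlf2). Flt3 ran with the T, NK and innate lymphoid share (r = 0.826), the plasmacytoid dendritic share (r = 0.797) and the neutrophil share (r = 0.762). The first of these shares was led by Lck and Cd4, with means of 29.8 and 18.6 CPM, whereas Cd3e had a mean of 0.626 CPM. Kit had r of 0.551 with the dendritic share and 0.514 with the neutrophil share, and Spn 0.598 with the latter. Bst1 ran opposite to the neutrophil share (r = -0.824). The values come from 16 list shares set against 9 genes, and the part of these cells in the members' levels was not tested. When the mature B share entered the fit, an alternative added after the data had been seen, the log2 fold change was 0.18 for Il2ra, 0.11 for Cd93, 0.0097 for Cd24a, 0.23 for Il7r and 0.25 for Bst1, all nearer to 0. In the same fit it was -0.72 for Flt3, -0.33 for Kit, -0.099 for Spn and 0.12 for Crlf2, all farther from 0, and the members at an unadjusted p under 0.05 were Il7r and Flt3 in place of Flt3 and Bst1.

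**Figure D3:**
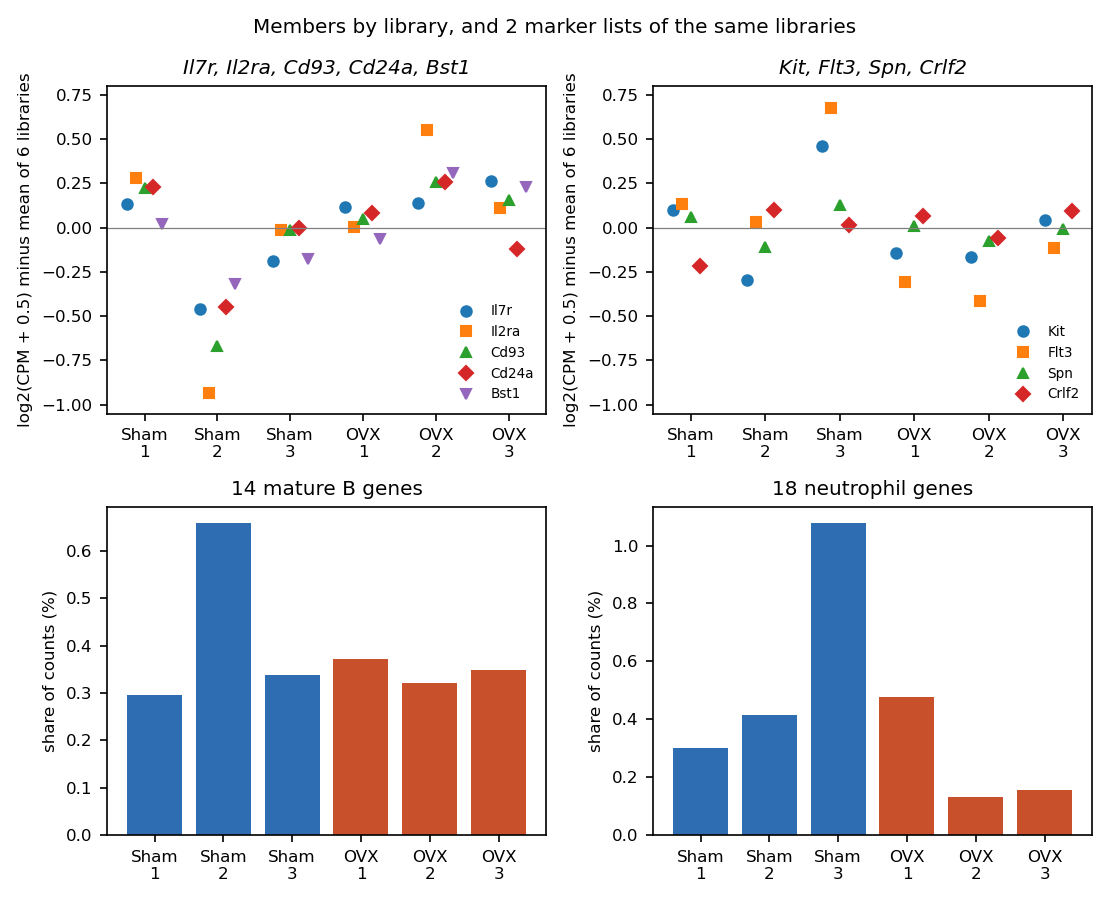
Top, log2(CPM + 0.5) of each gene minus its mean over the 6 libraries, 1 point per gene and library; bottom, share of counts in percent on the 14 mature B genes and the 18 neutrophil genes. Sham replicate 2 is low for the 5 genes of the upper left panel and highest in mature B genes at 0.659%, and Sham replicate 3 is high for Kit and Flt3 and highest in neutrophil genes at 1.08%.

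Ratios between members within a library do not depend on scaling. Il2ra had 10.6, 6.02 and 6.64 reads per read of Kit in Sham and 10.4, 15.4 and 9.77 in OVX, so the ratio of the pre-B to the pro-B marker overlapped between the groups. The ratio of Il2ra to Spn overlapped too, at 1.18 ± 0.290 in OVX against 0.858 ± 0.295 in Sham (SD of 3 libraries each). Il7r had 23.0, 20.2 and 14.2 reads per read of Kit in Sham and 27.0, 27.9 and 26.2 in the OVX libraries, and every OVX ratio lay above every Sham ratio. Kit had 2.90, 2.36 and 2.51 reads per read of Flt3 in Sham and 3.43, 3.68 and 3.38 in the OVX libraries, again without overlap. Of the 36 pairs of members, 10 had ratios that did not overlap between the groups, 7 of them with Flt3, against a background of 8.80% of the pairs of genes with a read in every library. These pairs share genes and were not tested.

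**Figure D4:**
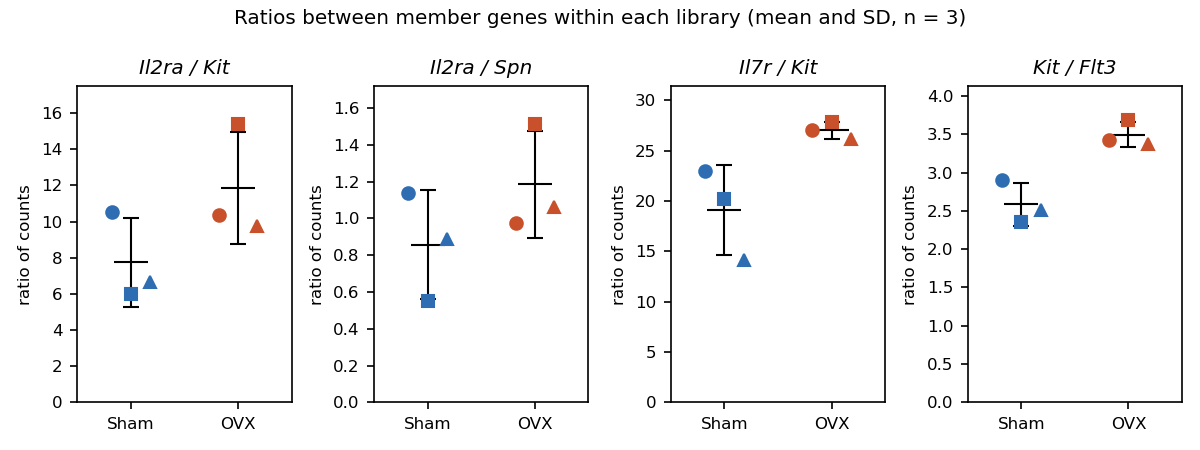
Ratio of the counts of 2 members within each library, 1 point per library (blue Sham, orange OVX, shape by replicate number), with the mean and SD of 3 libraries in black and axes from 0. The ratios of Il7r to Kit and of Kit to Flt3 do not overlap between the groups, and those of Il2ra to Kit and to Spn do.

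Reads of the receptors' ligands were counted as well. Kitl, the ligand of KIT, had 67 to 328 reads per library and Flt3l, the ligand of FLT3, had 309 to 566. Their log2 fold changes were -0.31 (standard error 0.54) and -0.12 (standard error 0.19). Kitl was at 5.15, 11.6 and 2.70 CPM in Sham and 3.42, 4.31 and 7.87 CPM in OVX, so its direction is not resolved. The study lists Kitl among genes bound by HIF-1α and higher after OVX, and does not state its rule for calling genes from the RNA-seq. Here the log2 fold change of Kitl was below 0, with an adjusted p of 0.886 in the quasi-likelihood test of edgeR. Il7 had at most 9 reads in a library, Tslp at most 6 and Il2 at most 1, and these 3 were not tested. Of the 20 listed genes of the interleukin 7 and TSLP receptor pathway, 18 were tested, 0 were called and 0 had an unadjusted p under 0.05, with 9 higher and 9 lower in OVX and a median log2 fold change of -0.0014 beside -0.0081 for all genes. Il2rg, the common gamma chain that pairs with the Il7r chain, was at 64.5, 107 and 74.7 CPM in Sham and between 68.8 and 75.2 CPM in OVX, with its highest level in the library where Il7r was lowest. The most abundant reads of the list were those of Mcl1, a survival factor, with a log2 fold change of 0.06 (standard error 0.10), and of Ccnd3, the cyclin D3 of pre-B cells, with 0.16 (standard error 0.15). Of the 17 genes of the KIT, FLT3 and interleukin 2 receptor pathway, 16 were tested, and 0 were called or had an unadjusted p under 0.05. Their median was 0.04, and it included the phosphatase gene Ptpn6 at -0.017 and the kinase gene Lyn at 0.18.

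Stage genes outside the members also differed between the Sham libraries. All 14 pro-B genes, 12 cycling pre-B genes and 8 small pre-B genes were tested, with 0 called and 0 at an unadjusted p under 0.05, and medians of 0.17, 0.13 and 0.16. The pro-B genes, led by Rag1 of V(D)J recombination (log2 fold change 0.48, standard error 0.29) and the surface marker gene Ly6d (0.07, standard error 0.15), took up 0.373%, 0.236% and 0.272% of the counts in Sham and 0.307%, 0.384% and 0.385% in OVX. The groups overlapped. Rag1 carried much of this share: 4 of the 14 genes (Rag1, Rag2, Sox4 and Cplx2) were lowest in Sham replicate 2 and 7 in Sham replicate 3, among them Igll1 and Vpreb1 of the surrogate light chain and Dntt, which adds nucleotides at V(D)J joints. These genes are named for their lowest library, seen after their values. The cycling genes were led by Top2a and Mki67, both with a log2 fold change of 0.10, and their median was -0.026 without Sham replicate 2. The median of the pro-B genes was 0.053 when Sham replicate 3 was left out, 0.087 when OVX replicate 3 was, and 0.36 when Sham replicate 1 was. The small pre-B genes were led by Vpreb3 (0.41, standard error 0.22) and Ikzf3 (-0.096, standard error 0.11). The 14 mature B genes had a median of -0.33, with 12 lower in OVX, Ighd at -0.31 and H2-Aa at -0.39 among them, and the median was 0.13 without Sham replicate 2, the library in which 13 of the 14 were highest. Of the 8 plasma cell genes, 0 were called and 2 had an unadjusted p under 0.05, both lower in OVX: Prdm1 with a log2 fold change of -0.93 (standard error 0.36) and Tnfrsf17 with -1.33 (standard error 0.54) and at most 32 reads. Jchain, of secreted antibody, was at -1.55 (standard error 0.68) and the surface receptor gene Slamf7 at 0.19 (standard error 0.13). Of the 12 general B cell genes, 0 were called and 1, the lineage factor Ebf1, had an unadjusted p under 0.05, with a log2 fold change of 0.35 (standard error 0.12) and no overlap between the groups. Cd79a was at 0.06 and Spib at 0.20.

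Transcripts of other cells that can carry these receptors moved with some members, and their part in the result was not tested. Each of the 18 neutrophil genes peaked in Sham replicate 3, as did Kit, Flt3 and Spn, and the list was led by S100a9 and Ngp, with a share of 0.597% ± 0.420 in Sham and 0.254% ± 0.193 in OVX (SD of 3 libraries each). Of the 12 basophil, mast cell and eosinophil genes, 10 were tested, 9 were highest in Sham replicate 3, and together they held 0.0038% to 0.0201% of the counts. The mast cell genes Cma1 and Tpsb2 had at most 3 and 2 reads, while Prg2 and Il5ra led the list at mean levels of 29.6 and 15.8 CPM. The 10 plasmacytoid dendritic cell genes, a lineage that carries FLT3, held 0.0640% to 0.0835%, highest in Sham replicate 3. Most of that share came from Irf8 and Tcf4, which B cells also express. The 10 stem and early progenitor genes, led by Ly6a and Tal1, held 0.0039% to 0.0106%, highest in Sham replicate 2, where Ly6a alone was at 85.4 CPM. Of the 8 tested, 1 was highest in that library and 3 in Sham replicate 3, where Kit and Flt3 peaked too: Tal1 at 14.9 CPM, Cd34 at 9.09 and Gata2 at 6.76, the last 2 named after their values were seen. The 15 T, NK and innate lymphoid genes, led by Lck and Cd4, held 0.0047% to 0.0093%, and the 16 monocyte and macrophage genes, led by Vcam1 and Hmox1, 0.0850% to 0.335%. The 10 stroma and endothelial genes, led by Pecam1 and Cxcl12, held 0.0255% to 0.0312% and the 12 erythroid and megakaryocyte genes, led by Hbb-bs and Hba-a1, 0.0255% to 0.0579%. No listed gene was at 0 reads in all libraries, none of these 8 shares separated OVX from Sham, and 0 genes of these lists were called. An unadjusted p under 0.05 was reached by 2 genes of the basophil list, 2 of the T and NK list and 1 of the dendritic list. It was also reached by 1 gene of the stem list, and all of these were lower in OVX. Gata2 stands on both the basophil and the stem list and is counted in each. Of the erythroid or megakaryocyte genes, 2 lower and 1 higher reached it.

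The genes whose levels followed each member most closely were looked up among 13155 genes with a mean of at least 1 CPM. Over 6 libraries a high r is common: 990 genes had r of 0.9 or more with Il2ra, 1019 with Cd93 and 786 with Il7r, against 69 with Kit, 77 with Flt3, 59 with Crlf2 and 55 with Spn. The 2 closest were Mob4 (r = 0.999) and Atl2 for Il7r, Fbxw11 (r = 0.999) and Lrwd1 for Il2ra, Ift22 (r = 0.999) and Sarnp for Cd93, and Pdha1 (r = 0.999) and Rab1b for Cd24a. For Bst1 they were Dhcr7 (r = 0.9998) and Ypel5, with 709 genes at r of 0.9 or more, and for Cd24a 620 genes reached that value. For Kit they were Pfkm (r = 0.993) and Selenbp1, for Flt3 Ttll12 (r = 0.985) and Hrh2, for Spn N4bp2os (r = 0.988) and Snrpd3, and for Crlf2 Ogfod3 (r = 0.994) and Cramp1l.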

How the data were processed

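RNA-seq counts of bone marrow B cells from 3 Sham and 3 OVX libraries were analysed, with groups and replicate numbers from the sample labels. The authors deposited raw counts per Ensembl gene, without normalization. The submitters' processing notes name the build mm10, CASAVA and Bowtie 0.12.2 with no stated role, and the counting tool and annotation are not given in the sources used here, so reads of overlapping genes could have been assigned in ways that cannot be checked. A table of gene names gave a symbol for 54409 of the 54532 identifiers. The 2 ChIP-seq samples were not analysed here.

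Counts were fitted in R 4.3.3 with edgeR 4.0.16 (filterByExpr, TMM, quasi-likelihood test, Benjamini-Hochberg adjustment over all 15305 genes tested), and genes were called at an adjusted p under 0.05. The standard error is the log2 fold change over the square root of F, and 95% intervals use the fit's total degrees of freedom. Single levels were compared on log2(CPM + 0.5) by exact permutation. Alternatives were DESeq2 1.42.0, limma-voom (limma 3.58.1), other scalings and filters, a replicate block, covariates and each library left out. The fits were also run on simulated counts. These were drawn for each gene on its own, without shared shifts in cell composition, so they do not show how the fits behave under such shifts. Intervals rest on reads without molecular identifiers.

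The members and gene lists were chosen with earlier results of these data known. Named genes were the 9 members, the list genes at an unadjusted p under 0.05 and the 2 of largest mean level in each list (at most 4, and for other cell types the 2 of largest level), and the 2 genes most like each member. Foxp3, Il2rg, Fcer2a, Cd3e, Cma1, Tpsb2 and the ligands were added for their role. All pairs of libraries differed by more than sampling noise, with a chi-square per degree of freedom of at least 9.29.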

Additional observations from a re-analysis of the deposited data

How the results depend on the processing

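No gene and no member was called under any of the 14 alternatives set out for this comparison or with the mature B share as a covariate, and the lowest adjusted p of a member was 0.273, in the edgeR fit that left out Sham replicate 1. Of 135 log2 fold changes of the members under these alternatives, 130 kept their direction and 5 reversed. Crlf2 was at -0.022 with scaling on the 12 general B cell genes (-0.017 as a difference of mean log2 levels), which moved the median of all genes by -0.083. With the neutrophil share as a covariate Kit was at 0.00064 and Spn at 0.0059. When 1 library was left out, log2 fold changes ran from -0.027 to 0.13 for Crlf2 and from -0.039 to 0.29 for Cd24a, and differences of mean log2 levels from -0.028 to 0.13 for Crlf2, from -0.042 to 0.30 for Cd24a and from -0.37 to 0.0032 for Kit. The causes were not tested.

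The number of members at an unadjusted p under 0.05 was 2. It was 1 with the replicate block, 0 with the neutrophil share as a covariate and 0 to 4 when 1 library was left out. Over all genes this number was 574, of which 225 were higher and 349 lower in OVX, against 63 and 498 with scaling on the B cell genes, 1269 genes without the filter on low counts, 206 with the replicate block, 183 with the neutrophil share as a covariate and 233 to 2698 when 1 library was left out, the last without Sham replicate 1. With scaling on the B cell genes the medians were -0.041 for the KIT, FLT3 and interleukin 2 receptor pathway, 0.074 for the small pre-B genes and -0.034 for the general B cell genes, and with the neutrophil share as a covariate 0.071 for the small pre-B genes and -0.16 for the plasma cell genes, while that of the pro-B genes turned to -0.046. With 1 library left out the medians ran from -0.55 to 0.13 for the mature B genes, from -0.70 to -0.29 for the plasma cell genes from 0.0036 to 0.15 for the general B cell genes and from -0.069 to 0.048 for the interleukin 7 and TSLP pathway.

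Libraries that share a replicate number did not deviate together. Correlated over genes, which are no replicates, their departures from the group mean gave r of -0.469, -0.242 and -0.335, so the fit with the replicate block, in which 0 genes were called, is given only here. Flt3, with 87 to 186 reads per library, is the member that depth limits most.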
